A study of Triticum turgidum subsp. durum with 96 samples.

Results

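The developing heads of Yawa, a durum wheat (Triticum turgidum subsp. durum) genotype that the labels class as tolerant of water deficit stress, were compared between plants under water deficit and plants under control watering. The 12 libraries were chosen by their labels alone, as all Yawa developing head libraries, and they make up 12 of the 96 small RNA libraries of the series, which covers 4 genotypes and 2 tissues. The control group (CG) had 6 plants held at 12% soil water content, and the water deficit stress group (WG) had 6 plants held at 6%, which is 50% of field capacity, for 15 d from the booting stage. Each library came from the developing head of 1 plant, and both groups were divided between 2 growing seasons with 3 plants each, so that control 1a is plant a of season 1. All 110 listed conserved miRNAs and all listed candidate pre-miRNA hairpins were followed in all 12 libraries.

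Plant miRNAs are short RNAs that a Dicer-like enzyme cuts from a folded hairpin precursor and that an Argonaute protein uses to find messenger RNAs with a nearly complementary site. The messenger is then cut or its translation is blocked. In developing inflorescences the oldest families control transcription factors: miR396 acts on growth regulating factors, miR166 on class III homeodomain leucine zipper factors, miR159 on GAMYB factors, miR319 on TCP factors, miR160 and miR167 on auxin response factors, and miR156 on SPL factors that set the timing of development. Other families answer to the supply of phosphate (miR399, miR827), sulfate (miR395) or copper (miR397, miR398, miR408, miR528).

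The sequences on which the results turn are given 5′ to 3′ as deposited, in DNA letters, with the seed (bases 2 to 8) in capitals. Names carry the species of the reference miRNA: Ath is Arabidopsis, Bdi Brachypodium, Gma soybean, Hvu barley, Osa rice, Sbi sorghum, Tae bread wheat and Zma maize. The first set holds the miR396 and miR319 family members, shown because near-identical sequences of a family moved differently.
Bdi-miR396a: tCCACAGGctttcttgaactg
Osa-miR396f: tCTCCACAggctttcttgaact
Bdi-miR319b: tTGGACTGaagggtgctccct
Zma-miR319a: tTGGACTGaagggtgctccc
Ath-miR319b: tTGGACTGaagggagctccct
Bdi-miR396a and Osa-miR396f share a run of 20 bases, but Osa-miR396f starts 2 bases earlier, so that their seeds differ. Zma-miR319a is Bdi-miR319b without its last base, and Ath-miR319b has 1 mismatch to Bdi-miR319b. The second set holds auxin response factor regulators of one seed and a pair of miR156 sequences, shown because the tests below called them.
Gma-miR167g: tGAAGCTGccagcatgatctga
Zma-miR167e: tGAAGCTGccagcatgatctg
Zma-miR167b: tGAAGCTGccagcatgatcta
Gma-miR156k: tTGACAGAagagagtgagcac
Ath-miR156b: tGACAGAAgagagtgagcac
The 3 miR167 sequences share the seed GAAGCTG and differ only at the 3′ end, while Gma-miR156k has 1 extra base at the 5′ end over the 20 bases it shares with Ath-miR156b. The third set holds miRNAs of other families that are described by library below, because their groups did not overlap or because stressed heads differed among themselves.
Bdi-miR827-5p: tTTTGTTGgttgtcatctaacc
Sbi-miR1432: cTCAGGAGagatgacaccgac
Osa-miR1432: aTCAGGAGagatgacaccgac
Zma-miR399e: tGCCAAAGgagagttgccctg
Zma-miR171d: tGTTGGCTcggctcactcaga
Hvu-miR5048a: tATTTGCAggttttaggtctaa
Tae-miR159b: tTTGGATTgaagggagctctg
Of the 110 sequences, 53 have a close relative among the others. Close means at most 2 mismatches at equal length, or the shorter sequence lying wholly within the longer. Because the authors' alignment allowed up to 2 mismatches, reads of such members could be divided between entries, and their separate values are uncertain to that extent.

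Values of conserved miRNAs are in RPM, the reads of a miRNA scaled to a fixed total of small RNA reads per library. Library depth, read from the step that 1 read makes in the RPM values, was 3.47 to 9.54 M reads (mega-reads; median 5.14) in control heads and 2.85 to 4.75 M reads (median 4.15) in stressed heads, a difference that a two-sided exact permutation test did not separate (p = 0.149). One read was worth 0.105 to 0.351 RPM, so values below about 1 RPM rest on a few reads. The tissue label held in both treatments: Bdi-miR319b had a median of 607 RPM in the 12 Yawa heads against 6.17 in the 12 Yawa flag leaves, and Osa-miR1432 5.23 against 195.

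The 6 stressed heads did not behave as one group. Stressed 1a, 2b and 2c had summed values over the 110 miRNAs of 5514, 6428 and 7879 RPM, the lowest of all 48 head libraries of the series, where the next lowest was 10442. Stressed 1b, 1c and 2a had 16220, 17125 and 16001 RPM, within the control range of 15259 to 22398 RPM. In 1a, 2b and 2c, 93, 86 and 88 of the 110 miRNAs lay below the lowest control head, against 40, 28 and 18 in 1b, 1c and 2a. Profiles of 1a, 2b and 2c correlated with each other at r = 0.96 to 0.98 across miRNAs on the log2 scale, and with 1b and 1c at 0.76 to 0.88. With stressed 2a they correlated at 0.87 to 0.90, and with the control heads at 0.78 to 0.94. These correlations are across miRNAs of the same libraries and describe likeness only. Their depths (4.58, 4.00 and 3.97 M reads) lay within the range of the control heads. Stressed 1a, 2b and 2c carry the same label as the others, so they stayed in every main result. Values without them are given as an alternative, chosen after the data were seen, in which limma called 0 features on any scale. In whole organs, fewer cells of a type and less RNA per cell cannot be told apart.

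**Figure D1:**
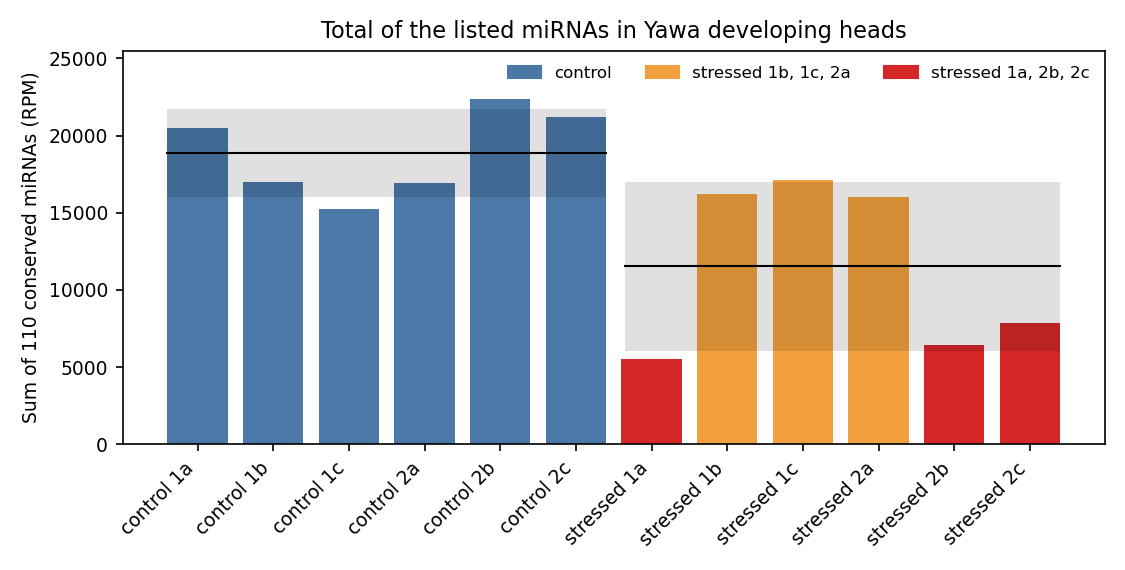
Sum of the 110 conserved miRNAs (y axis, RPM) in each Yawa head library (x axis); black lines are the means of 6 libraries and grey bands 1 SD on either side. The 6 control heads lay between 15259 and 22398 RPM, stressed 1b, 1c and 2a between 16001 and 17125 RPM, and stressed 1a, 2b and 2c between 5514 and 7879 RPM.

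The summed level of the conserved miRNAs was 18872 ± 2862 RPM (SD, n = 6) in control heads, from 15259 through a median of 18735 to 22398. In stressed heads it was 11528 ± 5456 RPM (SD, n = 6), from 5514 through a median of 11940 to 17125. The means differed by -7344 RPM, 1.64-fold lower under stress (two-sided exact permutation test, p = 0.026). The groups overlapped through stressed 1b, 1c and 2a, and without 1a, 2b and 2c the difference was -2423 RPM (p = 0.286, exact permutation). Within season 1 the difference was -4623 RPM (p = 0.5) and within season 2 -10065 RPM (p = 0.1), where 0.1 is the smallest p an exact permutation test of 3 against 3 can give. Without any one of control 1a, 2b and 2c or stressed 1a, 2b and 2c the exact permutation p was 0.0519, and the smallest of these differences was -6141 RPM, without stressed 1a.

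On the RPM scale the test was limma on log2(RPM + 1), with the spread of each miRNA estimated from all 48 head libraries and p adjusted over the 110 miRNAs. It called 61 miRNAs lower in stressed heads (55.5% of those tested) and 0 higher (0%). The median log2 difference over all 110 was -0.99, and 104 of the 110 lay below 0. Because most listed miRNAs were called, the count of a family is to be read against 55.5%. The split of calls depended on the scaling: when each library was scaled by the median ratio of its miRNAs, 11 were called lower and 3 higher, with a median of -0.20. With the spread taken from the 12 Yawa heads alone, limma called 26 miRNAs, all lower. Without stressed 1a, 2b and 2c limma called 0 miRNAs, with 3 at an unadjusted p under 0.05, and the median difference was -0.21. Groups that did not overlap at all were found for 3 miRNAs (2.73%), Bdi-miR827-5p, Gma-miR156k and Sbi-miR1432, all lower under stress.

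The miR396 family, which restrains growth regulating factors, supplied the most abundant listed miRNA, Bdi-miR396a. Its level was 3408, 3569, 2008, 3104, 5631 and 3938 RPM in control heads 1a to 2c, and 363, 4699, 4436, 2708, 248 and 249 RPM in stressed heads 1a to 2c. Stressed 1a, 2b and 2c were below every control head, and the others lay inside the control range. limma called Bdi-miR396a lower (log2 difference -1.73, SE 0.53, adjusted p = 0.01), but the difference was 0.15 without the 3 libraries. Ath-miR396b fell by 1.71 on the log2 scale (SE 0.53, adjusted p = 0.0103; -0.43 without the 3), from a control mean of 1298 ± 313 RPM to 556 ± 443 RPM (SD, n = 6 each), and Bdi-miR396d was called as well. The family median was -1.54 on the RPM scale, -0.71 relative to the listed total, -0.48 with median-ratio scaling and -0.07 on the RPM scale without the 3 libraries. Osa-miR396f, the member with the shifted 5′ end, had 14.3 ± 1.64 RPM in control and 14.6 ± 4.41 RPM in stressed heads (SD, n = 6 each).

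The miR165 and miR166 families regulate the leucine zipper factors that set organ polarity. Of their 15 listed sequences 7 were called lower on the RPM scale and 8 were not called. The seed CGGACCA is carried by 8 of the listed sequences, and 5 of those were called. The median over all 15 was -0.59, which turned to 0.10 relative to the listed total and to 0.32 with median-ratio scaling. It was -0.16 without the 3 low libraries. Ath-miR166b ran from 2169 through a median of 2524 to 3281 RPM in control heads and from 714 through 1641 to 2580 RPM in stressed heads. Its log2 difference was -0.83 (SE 0.26, adjusted p = 0.0108) but 0.25 with median-ratio scaling and -0.08 without the 3, with stressed 1a, 2b and 2c below all controls and the other stressed heads among them. Osa-miR166k, with 2 mismatches to Ath-miR166b, had 1323 ± 409 RPM in control and 952 ± 300 RPM in stressed heads (SD, n = 6 each) and was not called (log2 difference -0.47, SE 0.29, adjusted p = 0.147).

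Tae-miR159b, whose family restrains the GAMYB factors of gibberellin signalling and anther development, ranged from 2160 through 2356 to 2669 RPM in control heads. In stressed heads it ranged from 920 through 1535 to 2504 RPM, and 4 of 6 lay below the lowest control. It was called lower on the RPM scale (log2 difference -0.60, SE 0.23, adjusted p = 0.0274) but stood at 0.48 with median-ratio scaling, and at -0.47 without the 3 low libraries. Stressed 2c, which was low for Bdi-miR396a and Gma-miR167g, had the highest Tae-miR159b of the stressed heads, 2504 RPM. Of the 9 listed miR159 sequences 5 were called lower, with a family median of -0.60 that turned to 0.25 relative to the listed total and to 0.48 with median-ratio scaling and was -0.43 without the 3. Only 7 of the 9 carry the seed TTGGATT of Tae-miR159b, and 3 of those were called.

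Of the auxin response factor families, 5 of 8 miR167 and 3 of 3 miR160 sequences were called lower on the RPM scale. Only 4 of the listed miR167 sequences carry the seed GAAGCTG, and 3 of those were called. Without the 3 low libraries the miR167 and miR160 medians were -0.13 and -0.18, and relative to the listed total 0.01 and -0.03. Relative to the listed total with all 6 stressed heads these medians were -0.39 and -1.51. Gma-miR167g ran from 1782 through 2021 to 2184 RPM in control heads and from 511 through 1270 to 1832 RPM in stressed heads, with 5 of 6 below the lowest control (log2 difference -0.95, SE 0.24, adjusted p = 0.00554; 0.13 with median-ratio scaling and -0.21 without the 3). Zma-miR167b, the same sequence but for its 3′ end, went from 76.1 ± 17.5 RPM to 32.9 ± 32.9 RPM (SD, n = 6 each; log2 difference -2.11, SE 0.51, adjusted p = 0.00451; -0.32 without the 3). Sbi-miR160f had 29.5, 34.5, 14.2, 44.4, 54.2 and 50.1 RPM in control heads and 1.96, 21.0, 24.9, 29.9, 0.75 and 2.01 RPM in stressed heads, in the order 1a to 2c. Its log2 difference was -2.15 (SE 0.56, adjusted p = 0.00554) and -0.46 without stressed 1a, 2b and 2c.

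Of 7 miR156 sequences 5 were called lower, with a median of -0.79 and of -0.43 without the 3 low libraries. The seed GACAGAA is carried by 5 of the 7, Ath-miR156b among them but not Gma-miR156k, and 4 of those were called. Of the 7 sequences, only Gma-miR156k lay below all control heads in each of stressed 1b, 1c and 2a. Gma-miR156k had 120, 214, 95.6, 99.7, 146 and 114 RPM in control heads and 54.7, 60.8, 84.5, 59.7, 36.7 and 26.7 RPM in stressed heads. Every stressed head lay below every control head, and the mean was 2.44-fold lower (log2 difference -1.31, SE 0.32, adjusted p = 0.00451). Without the 3 low libraries the difference was -0.90 (unadjusted p = 0.0232, adjusted p = 0.919). Ath-miR156b fell by 1.10 on the log2 scale (SE 0.30, adjusted p = 0.00558; -0.47 without the 3), from 262 ± 46.8 RPM to 133 ± 61.3 RPM (SD, n = 6 each), with 5 of 6 stressed heads below the lowest control. Relative to the listed total the groups of Gma-miR156k overlapped, with 162 in stressed 1a, and its log2 difference was -0.47 (SE 0.27, adjusted p = 0.21).

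The miR319 family split by sequence. Bdi-miR319b ran from 472 through 708 to 735 RPM in control heads and 178, 741, 836, 512 and 148 RPM in stressed heads 1a to 2b, with the lowest value in 2c. It was called lower on the RPM scale (log2 difference -1.0, SE 0.36, adjusted p = 0.0203) but stood at 0.08 with median-ratio scaling and at 0.11 without stressed 1a, 2b and 2c. Zma-miR319a, 1 base shorter, had 185 ± 31.2 RPM and 169 ± 36.8 RPM (SD, n = 6 each) and Ath-miR319b 19.5 ± 4.57 RPM and 29 ± 12.8 RPM, neither called. Zma-miR171d, a regulator of GRAS transcription factors, had its highest levels in the low libraries, with 232 RPM in stressed 2b and values in 1a and 2c that were also above all controls, against 41.2 to 107 RPM in control heads and 53.8 to 67.3 RPM in stressed 1b, 1c and 2a. On the RPM scale its log2 difference was 0.54 (SE 0.33, adjusted p = 0.142), which is not a call.

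**Figure D2:**
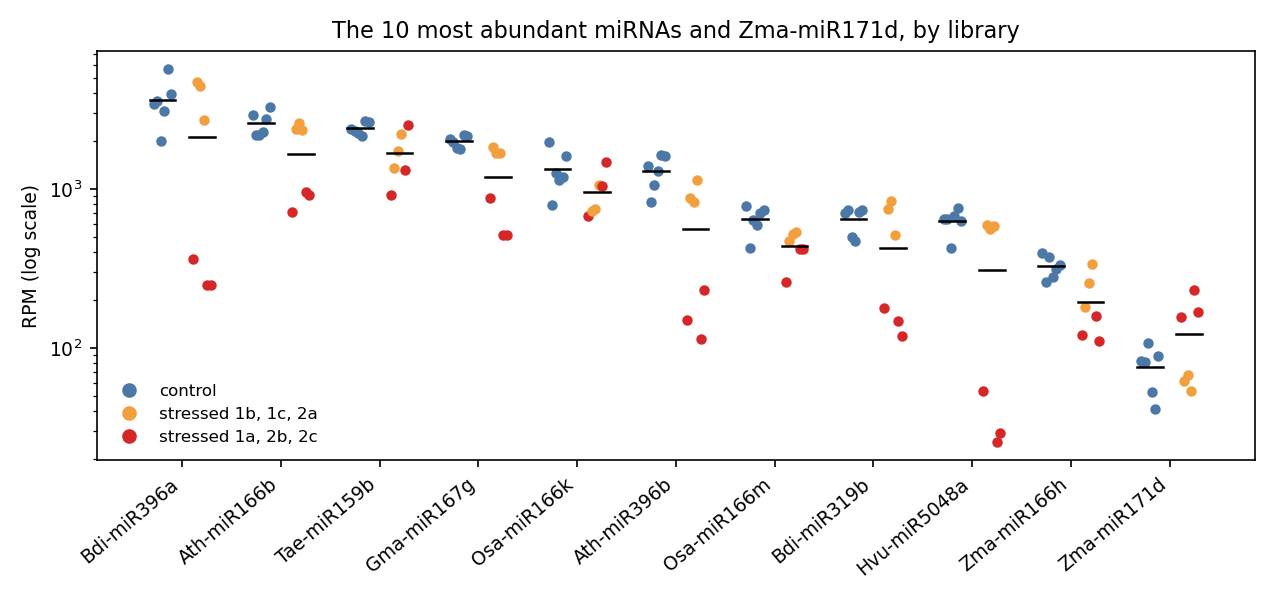
Level (y axis, RPM, log scale) of the 10 most abundant miRNAs and of Zma-miR171d (x axis) in each Yawa head; points are libraries and black bars means of 6. For Bdi-miR396a, Hvu-miR5048a and Bdi-miR319b the points of stressed 1a, 2b and 2c lie below all others, for Zma-miR171d they lie above all others (up to 232 RPM), and Tae-miR159b and Osa-miR166k overlap between groups.

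The families outside transcription factor control gave the following. All 4 members of the hormone and F-box list were called lower, with a median of -1.99. That median was 0.08 without the 3 low libraries. The list holds miR393, a family that acts on the auxin receptors, and miR394, which acts on an F-box protein of meristems. Osa-miR393b has no near-identical listed sequence, so the target of its family need not be its own. Bdi-miR394 had 30.6 to 113 RPM in control heads, 50.3 to 87.5 RPM in stressed 1b, 1c and 2a, and 2.18, 2.25 and 0.503 RPM in stressed 1a, 2b and 2c. Both listed sequences of miR168, a family that restrains ARGONAUTE1 and so the miRNA machinery itself, were called lower. Bdi-miR168 does not share the seed of Sbi-miR168, so the target of the family need not be its own. Sbi-miR168 went from 96.5 ± 24.2 RPM to 48.7 ± 24.1 RPM (SD, n = 6 each; log2 difference -1.12, SE 0.31, adjusted p = 0.00558; -0.49 without the 3), with 5 of 6 stressed heads below the lowest control.

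Of 5 nutrient sequences 4 were called lower, with a median of -1.74 and of -0.99 without the 3 libraries, where all 110 miRNAs had -0.21. Bdi-miR827-5p, from the miR827 hairpin of the phosphate response, had 2.32, 2.89, 1.78, 5.49, 4.61 and 2.24 RPM in control heads and 0.654, 0.698, 1.4, 1.26, 0 and 0 RPM in stressed heads. The groups did not overlap (log2 difference -1.35, SE 0.31, adjusted p = 0.00451; -0.94 without the 3), though these values rest on few reads. Zma-miR399e, which acts on a ubiquitin conjugase of phosphate homeostasis, ran from 10.2 through 14.5 to 53.6 RPM in control heads and from 0.5 through 2.42 to 14.7 RPM in stressed heads (log2 difference -2.20, SE 0.53, adjusted p = 0.00451; -0.99 without the 3). Only stressed 1c, at 14.7 RPM, reached the control range. Its close relative Zma-miR399c, with 1 mismatch, had the lowest log2 difference among the 110, -2.55 (SE 0.68, adjusted p = 0.00558), and -1.16 without the 3.

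Tae-miR395b, which acts on sulfate assimilation, had 13.1, 44.4, 6.5, 8.87, 29.7 and 11.7 RPM in control heads and 3.93, 1.63, 2.45, 4.21, 3.5 and 11.8 RPM in stressed heads. Its log2 difference was -1.74 (SE 0.78, adjusted p = 0.0548), just outside the threshold, and -2.17 without the 3 low libraries (unadjusted p = 0.0319, adjusted p = 0.919). It was one of 4 among the 110 miRNAs that were below all control heads in each of stressed 1b, 1c and 2a, with Sbi-miR1432, Gma-miR156k and Bdi-miR827-5p. These 4 were singled out after their values were seen.

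The copper list holds families that act on laccases, superoxide dismutases and blue copper proteins. Its median was -1.06 with and without the 3 libraries. Of its 7 members 1, Bdi-miR528, was called lower by limma (log2 difference -1.73, SE 0.75, adjusted p = 0.0464, and -1.31 without the 3). Bdi-miR528 does not share the seed of Zma-miR528a, so the targets of the family need not be its own. The copper miRNAs varied widely among the stressed heads and in another order than the rest. Zma-miR398b had 32.1 to 67.7 RPM in 5 control heads and more in control 2a, and 3.49, 1.16, 18.9, 64.1, 16.7 and 11.6 RPM in stressed heads 1a to 2c, where stressed 1b was lowest and 2a inside the control range (log2 difference -2.21, SE 1.06, adjusted p = 0.0675). Zma-miR528a had 62.1 to 208 RPM in control heads and 8.94, 2.1, 60.3, 145, 43 and 22.7 RPM in stressed heads (log2 difference -2.24, SE 1.23, adjusted p = 0.106).

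Of 13 grass and cereal sequences 8 were called lower, with a median of -1.31 and of -0.10 without the 3 low libraries. Sbi-miR1432, of a family that acts on calcium-binding proteins in rice, had 10.3, 6.14, 4.51, 6.55, 17.6 and 5.03 RPM in control heads and 0.436, 4.19, 2.1, 2.52, 0.25 and 0 RPM in stressed heads. The groups did not overlap, with a mean 5.27-fold lower (log2 difference -1.97, SE 0.54, adjusted p = 0.00558; -1.14 without the 3). Osa-miR1432, which differs from it at 1 base, behaved alike (log2 difference -2.18, SE 0.60, adjusted p = 0.00558; -1.26 without the 3). Hvu-miR5048a had 427 to 754 RPM in control heads, 559 to 595 RPM in stressed 1b, 1c and 2a, and 53.2, 25.7 and 29.2 RPM in stressed 1a, 2b and 2c (log2 difference -2.12, SE 0.60, adjusted p = 0.00674; -0.10 without the 3). Bdi-miR7757 ran from 16.6 through 31.2 to 64.3 RPM in control heads and from 0.999 through 11.0 to 23.1 RPM in stressed heads (log2 difference -2.25, SE 0.55, adjusted p = 0.00451; -0.65 without the 3). Of 19 repeat-like sequences of the wheat tribe 8 were called lower, with a median of -0.71 on the RPM scale, -0.20 relative to the listed total, -0.03 with median-ratio scaling and -0.17 on the RPM scale without the 3 libraries.

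The fold criteria of the study (a ratio of means above 1.5 and at least 10 RPM in 1 group), which use no spread, gave 45 lower miRNAs (40.9%) and 1 higher (0.909%), the higher one being Zma-miR171d. Of the 61 miRNAs that limma called, 34 also met these criteria. Without stressed 1a, 2b and 2c the criteria gave 12 lower and 1 higher.

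Because RPM divides by all small RNA reads, the values were also set relative to the library's summed listed miRNAs, scaled to the mean sum of the 48 head libraries. On this relative scale limma called 14 of 110 miRNAs (12.7%), 12 lower (10.9%) and 2 higher (1.82%), and the median log2 difference was -0.38. All 12 lower calls were among the 61 on the RPM scale: Bdi-miR827-5p, Zma-miR399c and Zma-miR399e of the phosphate families, both miR1432 sequences, Bdi-miR168, Zma-miR167b, Sbi-miR160f, Ath-miR160a, Osa-miR444b, Gma-miR393h and Bdi-miR7757. Their members thus include phosphate, auxin, calcium-binding and MADS-box regulators, and no list as a whole. Zma-miR399c fell by 2.21 on the relative log2 scale (SE 0.63, adjusted p = 0.0251) and Bdi-miR827-5p by 1.08 (SE 0.29, adjusted p = 0.0213). Groups on this scale overlapped for all 110 miRNAs (0%). With the spread taken from the 12 Yawa heads alone, limma called 0 miRNAs on this scale, with 24 at an unadjusted p under 0.05.

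The 2 miRNAs called higher on the relative scale were Zma-miR171d and Osa-miR396f, the second of which lies outside the rule for named miRNAs and is given because it completes the count. Zma-miR171d rose by a log2 difference of 1.38 (SE 0.43, adjusted p = 0.0265). Its share of the listed total was 0.184 to 0.702% in control heads, 0.336 to 0.393% in stressed 1b, 1c and 2a, and 2.82, 3.6 and 2.12% in stressed 1a, 2b and 2c. Osa-miR396f rose by 0.80 (SE 0.27, adjusted p = 0.0363), again with only stressed 1a, 2b and 2c above all control heads. Without these libraries limma called 0 miRNAs on the relative scale, with 3 at an unadjusted p under 0.05 and a median of -0.04, and Zma-miR171d stood at -0.06. The fold criteria on relative values gave 18 lower (16.4%) and 14 higher (12.7%), and 8 and 3 without the 3 libraries.

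The make-up of the miRNA pool in stressed 1a, 2b and 2c differed from the other Yawa heads in named members. Bdi-miR396a made up 13.2 to 25.1% of the listed total in control heads and 16.9 to 29% in stressed 1b, 1c and 2a, but 6.58, 3.85 and 3.16% in stressed 1a, 2b and 2c. Tae-miR159b was the most abundant listed miRNA there, with 16.7, 20.3 and 31.8%, against 11.7 to 14.7% in control heads. It was also the most abundant in control 1c. Osa-miR166k had shares of 12.3, 16.3 and 18.6%, against 4.69 to 9.62% in control heads. Among the 36 heads of the other genotypes, shares reached 36.1% for Tae-miR159b (median 13.5%) and 25.9% for Osa-miR166k (median 7.05%). Ath-miR166b had 13, 14.8 and 11.7% in stressed 1a, 2b and 2c, against 12.3 to 15.5% in control heads.

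**Figure D3:**
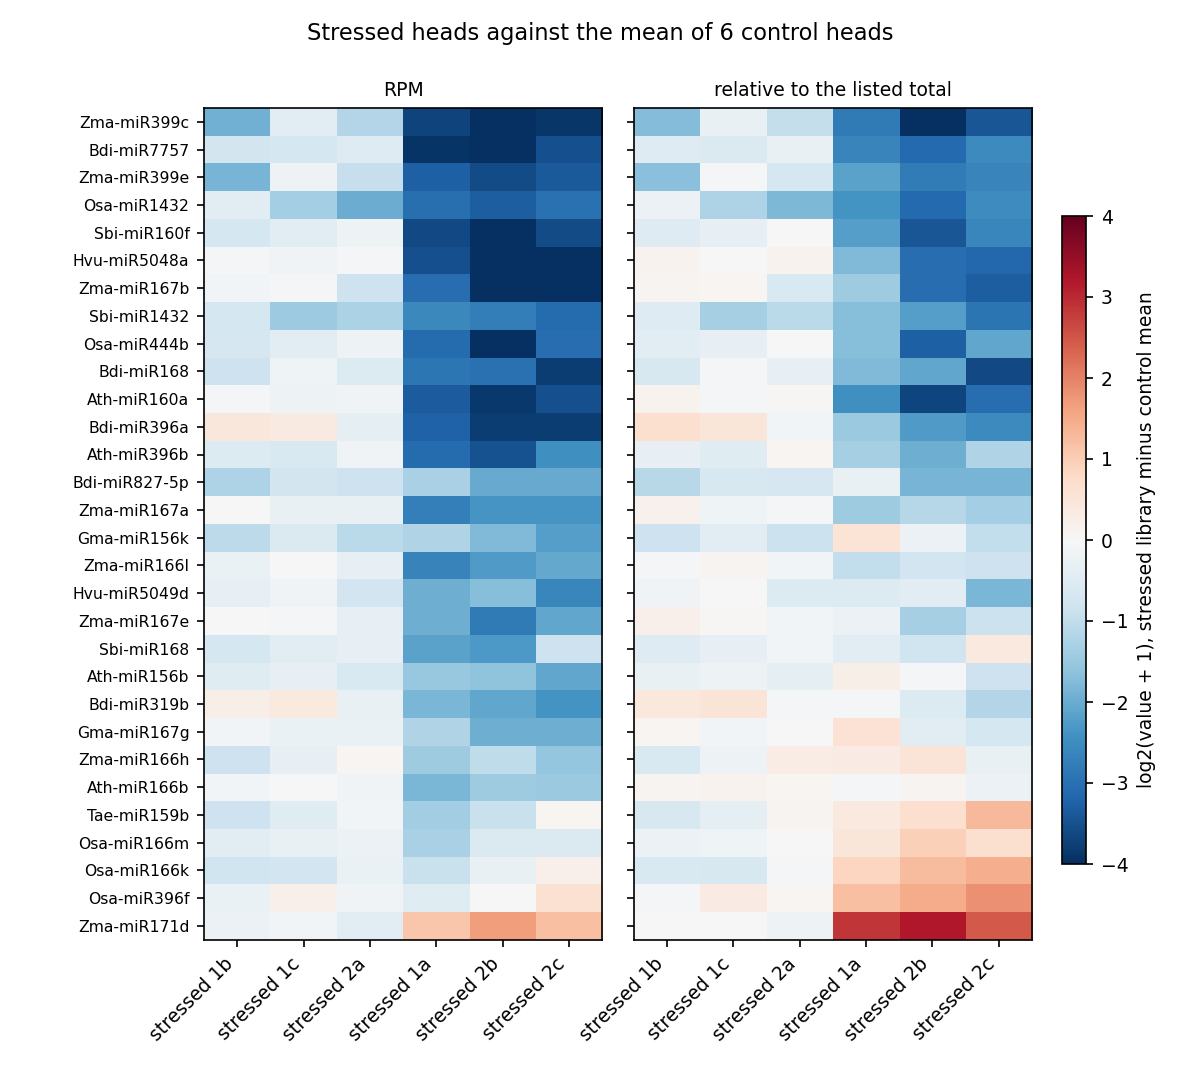
Colour gives log2(value + 1) of each stressed head (x axis) minus the mean of the 6 control heads, for the 29 named miRNAs and Osa-miR396f (y axis), on the RPM scale (left) and relative to the listed total (right), blue for lower and red for higher. Stressed 1a, 2b and 2c carry the dark cells on both scales, blue for most miRNAs and red for Zma-miR171d (2.12 to 3.6% of the listed total).

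Several pairs of near-identical sequences had ratios outside the control range in these libraries. The pairs were chosen after the values were seen and are given without a test. The ratio of Bdi-miR396a to Osa-miR396f was 121 to 355 in control heads and 211 to 404 in stressed 1b, 1c and 2a, but 36.2, 17.1 and 11.1 in stressed 1a, 2b and 2c. The ratio of Bdi-miR319b to Zma-miR319a, which lacks only the last base, was 2.39 to 4.19 in control heads, 3.19 to 4.08 in stressed 1b, 1c and 2a, and 1.23, 0.765 and 1.04 in stressed 1a, 2b and 2c. In these 3 heads Zma-miR319a itself (145, 193 and 114 RPM) lay within or just below the control range of 127 to 213 RPM.

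Some pairs moved the other way or kept their ratio. Zma-miR167e to Zma-miR167b was 1.26 to 1.84 in control heads and 3.51, 5.55 and 9.36 in stressed 1a, 2b and 2c. Gma-miR156k to Ath-miR156b was 0.374 to 0.676 in control heads and 0.434 to 0.609 in those 3. The length, GC content and mean level of the 110 miRNAs followed the log2 difference on the RPM scale with Spearman's rho of 0.01, -0.01 and -0.21, values that describe miRNAs sharing the same libraries.

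Among the 36 heads of the other genotypes, the lowest ratio of Bdi-miR396a to Osa-miR396f was 23.4 in Tamaroi control 1b and the next 40.8 in EGA Bellaroi control 2b, followed by 124 in Tjilkuri stressed 2c, with a median of 180. For Bdi-miR319b to Zma-miR319a the same 2 control heads were lowest, 1.02 and 1.38, then 2.12, with a median of 3. Tamaroi control 1b and EGA Bellaroi control 2b also had the lowest shares of Bdi-miR396a, 4.07 and 5.77%, where the median of the 36 heads was 15.5%. What these 5 heads share was not tested.

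**Figure D4:**
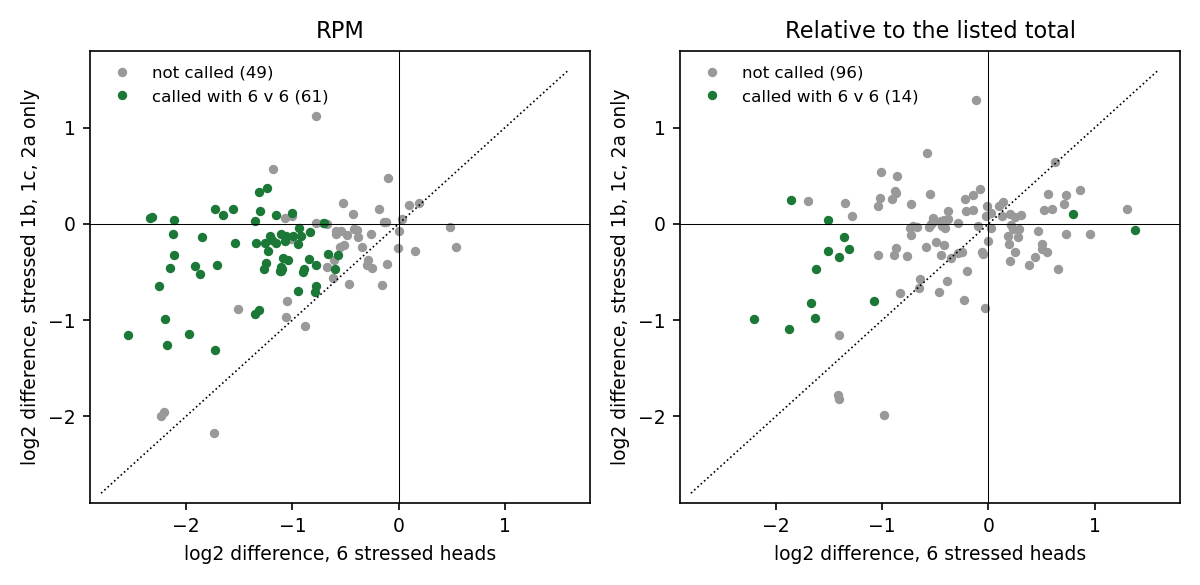
Log2 difference between stressed and control Yawa heads for each of the 110 miRNAs with all 6 stressed heads (x axis) and with stressed 1b, 1c and 2a only (y axis), on the RPM scale (left) and relative to the listed total (right); the dotted line marks equal values. Green points are the 61 and 14 miRNAs called with 6 against 6, most of which lie near 0 on the y axis.

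By season, limma called 0 miRNAs on the RPM scale in season 1 (14 at an unadjusted p under 0.05; median -0.61) and 54 in season 2 (median -1.28). Season 1 holds 1 of the 3 low libraries and season 2 the other two. On the relative scale the counts were 0 in season 1 (3 at an unadjusted p under 0.05) and 35 in season 2, and among the hairpins 0 (8) and 11. Leaving out single libraries moved the 61 RPM calls to 29, 21 and 26 without stressed 1a, 2b and 2c respectively, and 20 of the 61, Gma-miR156k, Bdi-miR827-5p and both miR399 and miR1432 sequences among them, were called in all 12 such fits. The 14 relative calls became 5, 22, 0, 0 and 9 without control 1a, 1c, 2a, 2b and 2c, and 1, 28, 30, 26, 0 and 0 without stressed 1a, 1b, 1c, 2a, 2b and 2c, and 0 of them were called in all 12 fits.

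The candidate hairpins, which had no match among known miRNAs, were compared on the deposited log2 CPM, a read count scaled to a fixed library total and put on the log2 scale. limma called 4 (2.52%), all lower under stress: Ttu pre-miR060, Ttu pre-miR077, Ttu pre-miR038 and Ttu pre-miR080. The median log2 difference over all hairpins was -0.32, and 104 lay below 0. Centred on the library median, the median difference turned to 0.36 with 49 below 0, and limma called 0 hairpins (21 at an unadjusted p under 0.05), as it did with the 12 Yawa heads alone (21). Positions are on contigs of the bread wheat chromosome survey sequence, whose D genome durum wheat does not carry, so a D contig is not the durum locus. Without stressed 1a, 2b and 2c limma called 0 hairpins, with 4 at an unadjusted p under 0.05 and a median of -0.02. Without single libraries the count was 2 (control 1a, 1b or 1c), 1 (control 2b or 2c), 0 (stressed 1a, 2b or 2c), 12 (stressed 1b), 10 (stressed 1c) and 7 (stressed 2a).

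Ttu pre-miR060 (arm 2DL, contig 9910424, bases 5625 to 5739) had 3.17 to 3.89 log2 CPM in control heads and 0.15, 2.96, 3.37, 2.84, -0.56 and -0.01 log2 CPM in stressed heads. The 3 low libraries stood far below the rest (log2 difference -2.09, SE 0.48, adjusted p = 0.0109; -0.49 without them). Ttu pre-miR077 (chromosome 3B, contig 10651148, bases 2304 to 2430) had 2.42 to 2.88 log2 CPM in control heads and -0.21, 1.7, 1.66, 2.19, 1.21 and 0.89 log2 CPM in stressed heads. It was the only hairpin (0.629%) whose groups did not overlap (log2 difference -1.36, SE 0.35, adjusted p = 0.0245; -0.75 without the 3 libraries).

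Ttu pre-miR080 (chromosome 3B, contig 10771361, bases 12350 to 12454) had 1.92 to 2.79 log2 CPM in control heads and 0.15, 1.89, 0.08, 2.04, 1.21 and 1.27 log2 CPM in stressed heads, with stressed 1c the lowest (log2 difference -1.21, SE 0.35, adjusted p = 0.0479; -0.98 without the 3 libraries). Ttu pre-miR038 (arm 2AL, contig 6436995, bases 1223 to 1352) had 5.6 to 6.18 log2 CPM in control heads, 5.57 to 5.90 in stressed 1b, 1c and 2a, and 3.85, 3.78 and 3.6 in stressed 1a, 2b and 2c (log2 difference -1.19, SE 0.34, adjusted p = 0.0472; -0.17 without them).

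Ttu pre-miR038 was 1 of 5 hairpins that the study singled out from these same libraries, so its change is not independent evidence. The mature sequences of 4 of them are shown because the study names them.
Ttu-miR007: tGTAATAAactagtcttcaga
Ttu-miR008: tAAGGAAAagaaggagaaacg
Ttu-miR038: tTTGTGATttgtgaatgccacgtg
Ttu-miR109: gAGAGCTActcaaatgttcaa
Ttu pre-miR007 (arm 1AS), the hairpin with the highest mean, had 8.78 to 9.29 log2 CPM in control heads, 8.61 to 9.05 in stressed 1b, 1c and 2a, and 7.83, 6.41 and 6.79 in stressed 1a, 2b and 2c, and was not called (log2 difference -1.12, SE 0.39, adjusted p = 0.108). Ttu pre-miR008, Ttu pre-miR109 and Ttu pre-miR119 were near the detection limit, with control means of -1.09, -0.97 and -0.97 log2 CPM and 4 of 6 stressed heads at their library's lowest value. None of these 3 was called by limma (log2 differences -1.24, -1.04 and -1.12, adjusted p = 0.4, 0.404 and 0.4). The paper counts 4 mature miRNAs for the 5 hairpins. Ttu pre-miR109 and Ttu pre-miR119 had equal control means in Yawa heads and also in Tjilkuri heads (-0.85 log2 CPM). They may not be separate measurements.

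Abundant hairpins did not all follow. Ttu pre-miR079 (chromosome 3B) had 6.72 to 7.12 log2 CPM in control heads and its highest stressed value, 7.27, in stressed 2b (log2 difference -0.30, SE 0.27, adjusted p = 0.677). Ttu pre-miR033, Ttu pre-miR045 and Ttu pre-miR059, on arms 2AL, 2BL and 2DL, had values equal to within 0.01 in every library, so their reads cannot be told apart and they count as 1 measurement (log2 difference -0.42, SE 0.39, adjusted p = 0.677). By genome of the contig, 1 of 47 A, 2 of 59 B and 1 of 53 D hairpins were called. In stressed 1a, 2b and 2c, 42 hairpins lay below all control heads and 8 above, so that, as for the conserved miRNAs, not all features were lower in these libraries.

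**Figure D5:**
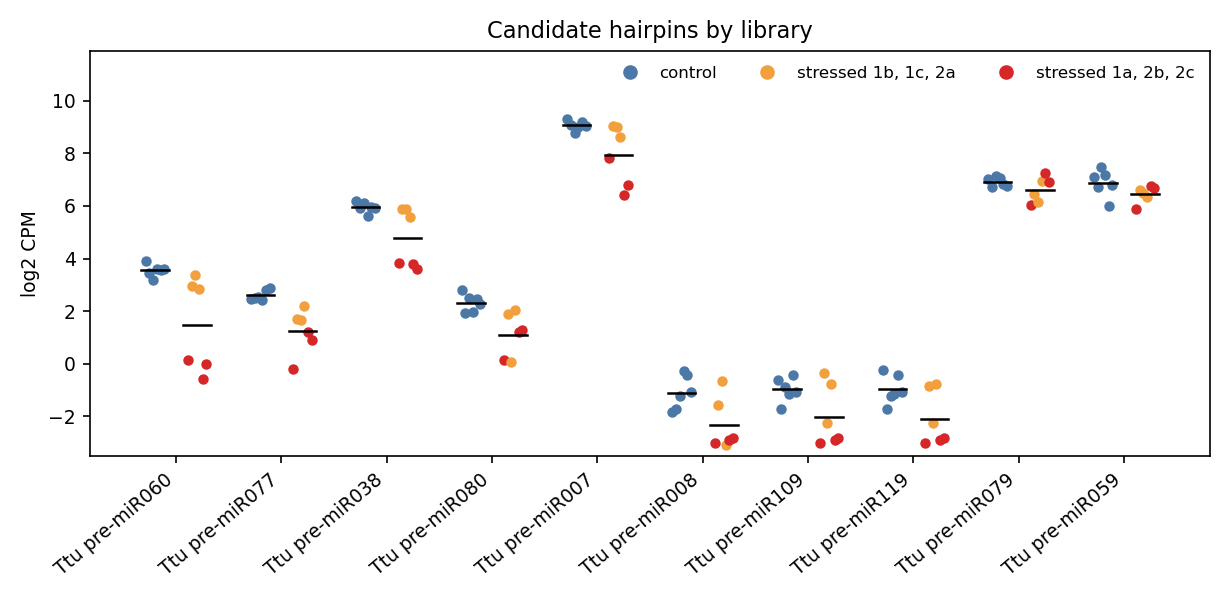
Level (y axis, log2 CPM) of the 4 hairpins called, the 4 other hairpins singled out by the study and 2 abundant hairpins (x axis) in each Yawa head; points are libraries and black bars means of 6. For Ttu pre-miR060 and Ttu pre-miR038 stressed 1a, 2b and 2c lie below the other heads, while Ttu pre-miR079 and Ttu pre-miR059 overlap between groups.

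The response of Yawa heads was set against that of 3 other groups of libraries by testing the difference between the responses in limma. Against Tjilkuri heads, a genotype the labels class as sensitive, 2 miRNAs differed on the RPM scale (1.82%), both of the miR156 family. Gma-miR156k went from 117 ± 32.1 to 151 ± 41.6 RPM under stress in Tjilkuri (SD, n = 6 each; log2 difference 0.36, SE 0.32), and its response in Yawa was lower by 1.67 on the log2 scale (difference -1.67, SE 0.46, adjusted p = 0.039). Ath-miR156b went from 208 ± 52.6 to 279 ± 66.5 RPM in Tjilkuri (log2 difference 0.43, SE 0.30), with a difference of -1.53 (SE 0.42, adjusted p = 0.039). Without stressed 1a, 2b and 2c of Yawa these were -1.26 and -0.90 (adjusted p = 0.843 for both), and on the relative scale -0.76 and -0.61 (adjusted p = 0.267 and 0.295). Leaving out single Yawa libraries gave 0 to 47 calls: 22 without control 1c, 44, 45 and 47 without stressed 1b, 1c and 2a, 2 without control 2a, and 0 without any one of the other 7.

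Against Tamaroi heads, the other tolerant genotype, limma found 0 miRNAs (0%) on the RPM scale, with 40 at an unadjusted p under 0.05. This count was 29, 38 and 26 without stressed 1b, 1c and 2a and 0 without each of the other libraries. Against the flag leaves of the same Yawa plants, with the plant as a block, 2 miRNAs differed (1.82%). Zma-miR167b went from 72.5 ± 52.5 to 70.3 ± 37.3 RPM in flag leaves (SD, n = 6 each; log2 difference -0.10), and its response in heads was lower by 2.01 on the log2 scale (difference -2.01, SE 0.54, adjusted p = 0.0301). Zma-miR167a, named for the family but without its seed, was nearly absent from flag leaves (0.208 ± 0.189 RPM in control, 0.436 ± 0.401 RPM under stress), with a difference of -1.56 (SE 0.43, adjusted p = 0.0301). At so few reads a leaf response could not have been measured, so that this difference restates the values in heads. Without stressed 1a, 2b and 2c the differences were -0.40 and -0.43 (adjusted p = 0.919 for both), and single libraries left out gave 0 (control 1a, 2b or 2c, stressed 1a, 2b or 2c), 4 (control 1b) or 6 calls (stressed 1b, 1c or 2a).

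On the relative scale and for the hairpins, limma found 0 differences in response (0%) against each of the 3 groups. The numbers at an unadjusted p under 0.05 were 21, 32 and 13 of 110 miRNAs against Tjilkuri heads, Tamaroi heads and Yawa flag leaves, and 20, 17 and 16 of the hairpins. The labels give 1 plant per head, so the p-values rest on the spread between plants. That spread was pooled within groups over all head libraries of the series, or over all libraries for the contrast with flag leaves. It is therefore not the spread of the Yawa plants alone.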

How the data were processed

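Small RNA of developing heads was gel purified and sequenced, 1 library per plant. Per the methods, the authors matched trimmed reads to the plant entries of miRBase release 20 with up to 2 mismatches and deposited RPM (reads of a miRNA scaled to a fixed total of small RNA reads), for sequences that passed 2 RPM in 48 or more libraries. For the hairpins, candidates folded from contigs of the bread wheat survey sequence, the authors deposited log2 CPM, and the sources used here do not give the counting step. Libraries were grouped by their labels.

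limma 3.58.1 (R 4.3.3) was fitted to log2(RPM + 1), to relative values + 1 (RPM times the mean listed total of the 48 heads, 16323 RPM, over the library's own) and to the hairpin values, with 1 mean per group over the 48 heads (96 libraries, plant as random block, against flag leaves), trended variances and Benjamini-Hochberg adjustment over all features at 0.05. A difference on the log2(value + 1) scale understates the change of low miRNAs. Exact two-sided permutation tests served for summed levels, and all values above 0 (10451) were whole reads to within 0.01 reads, which gave the depths. The fits were run on simulated data with independent noise of 1 spread per feature, which lack a shift common to all miRNAs of a library. A log2 fall of 1 was found for 36% of changed miRNAs (RPM) and 7.5% of changed hairpins. A log2 fall of 2 was found for 90.5% and 62.5%. A count of 0 calls therefore does not show that nothing changed. Named miRNAs are the 20 with the smallest p on the RPM scale, the 10 on the relative scale, the 10 most abundant and those called in an interaction (29 in all), and named hairpins the 8 with the smallest p, the 5 with the highest mean, the 2 smallest p per interaction and the 5 the study singles out (15 in all). Members of the family lists are also named in the text beyond this rule, chosen after their values were seen. Members and lists were chosen with earlier results of these data known. Alternatives tried were other pseudocounts, a minimum level, median-ratio scaling, fewer libraries in the fit, season or replicate as a term, single seasons, other fold thresholds and each library left out.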

Additional observations from a re-analysis of the deposited data

Results flagged for a closer look

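Control 2b stood apart for both miR399 sequences, with 53.6 RPM of Zma-miR399e and 65.1 RPM of Zma-miR399c against at most 17.6 and 16.6 RPM in the other control heads. Of 92 groups of 6 libraries checked in this way, 2 had a library this far from the rest, where chance gives about 5% of groups. The 4 differences in response that passed the limma test are also singled out: Gma-miR156k (-1.67) and Ath-miR156b (-1.53) between Yawa and Tjilkuri heads, and Zma-miR167b (-2.01) and Zma-miR167a (-1.56) between Yawa heads and flag leaves. Zma-miR167a was close to 0 RPM in flag leaves, so its difference restates the values in heads.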

How the results depend on the processing

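The alternative without stressed 1a, 2b and 2c was chosen after the data were seen. It left 0 calls by limma on the RPM scale, on the relative scale, among the hairpins and in each interaction, with 13 (RPM) and 11 (relative) miRNAs past the fold criteria and a difference in summed level of -2423 RPM. It turned Bdi-miR396a (0.15) and Bdi-miR319b (0.11) on the RPM scale and Ath-miR160a (0.04) and Zma-miR171d (-0.06) on the relative scale. The cause was not tested. Median-ratio scaling over the 48 heads gave 14 calls on the RPM scale, 11 lower and 3 higher, moved the median of all miRNAs from -0.99 to -0.20, and turned Gma-miR167g (0.13), Ath-miR166b (0.25), Tae-miR159b (0.48), Osa-miR166m (0.51), Bdi-miR319b (0.08) and Zma-miR166h (0.23).

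A minimum mean of 10 RPM, which left 58 miRNAs to test, gave 33 calls on the RPM scale. The 12 Yawa heads alone gave 26 on the RPM scale, 0 on the relative scale (24 at an unadjusted p under 0.05) and 0 hairpins (21), and the libraries of a contrast alone gave 5 differences from Tjilkuri heads and 0 from flag leaves (23 at an unadjusted p under 0.05). Season 1 alone gave 0 calls on each scale, 16 past the relative fold criteria and a summed difference of -4623 RPM, and season 2 alone 35 relative calls, 11 hairpins and -10065 RPM. Centring the hairpins on the library median gave 0 calls (21 at an unadjusted p under 0.05), with a median of 0.36, and a constant prior variance 2. Season as a term gave 4 differences from flag leaves. A fold above 2 gave 20 miRNAs on the RPM scale and 14 on the relative scale.

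Labels shared between groups (1a to 2c) did not pair the plants: deviations of same-labelled plants correlated at -0.62 to 0.42 on the RPM scale, and 1 of 6 stressed heads correlated best with its own label. With the replicate label as a block limma gave 60 calls on the RPM scale, 14 relative calls, 2 hairpins, 0 differences from Tjilkuri heads and 4 from flag leaves.

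Leaving out 1 library at a time gave 21 to 71 calls on the RPM scale, 0 to 30 on the relative scale and 0 to 12 hairpins. The differences in response ranged from 0 to 47 (Tjilkuri), 0 to 38 (Tamaroi) and 0 to 6 (flag leaf) on the RPM scale, from 0 to 11 (Tamaroi) and 0 to 1 (flag leaf) on the relative scale, and from 0 to 2 for hairpins against Tjilkuri. Relative fold criteria were met by 21 to 38 miRNAs, and the summed difference ranged from -8463 to -6141 RPM (exact permutation p from 0.013 to 0.0519). Of these differences, the 10 and 11 against Tamaroi on the relative scale came without stressed 1b and 1c, the 1 against flag leaves without either of them, and the 1, 1 and 2 hairpins without stressed 1b, 1c and 2a. The 3 planned tests on counts were not run; whole reads recovered from the RPM values were used for depth only. Depth limits miRNAs of a few RPM, where 1 read was worth up to 0.351 RPM.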
